A study of Mus musculus with 6 samples.

Results

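The 39 genes described here encode the vacuolar proton pump (V-ATPase) and proteins of the lysosome other than the cathepsins, together with the TFEB family of transcription factors. They were taken from a fixed list of gene symbols. All 39 were found among the 23107 genes of the table, and all 39 passed the filter on low counts that left 12950 genes for testing. By role they are 15 pump genes, 14 hydrolases and luminal cofactors, 7 membrane proteins and 3 TFEB family genes. RNA came from CD11b+ Gr-1+ myeloid cells sorted from gliomas of C57BL/6 mice, in 3 libraries from tumours with wild-type IDH1 (wtIDH1) and 3 from tumours with mutant IDH1 (mIDH1). Mutant IDH1 is the form of cytosolic isocitrate dehydrogenase that makes 2-hydroxyglutarate. The labels name no further allele, treatment, age or time for these groups, and do not say how the tumours were induced or whether replicates came from separate mice. If they did not, the p-values reflect technical spread alone.

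The V-ATPase burns ATP in its cytosolic V1 sector to turn a rotor that drives protons through the membrane-bound V0 sector. The acid it makes inside lysosomes activates the hydrolases that break down proteins, lipids, sugars and engulfed cells, a main task of macrophages. TFEB, TFE3 and MITF are related transcription factors held in the cytosol by mTORC1 signalling when nutrients are plentiful. In the nucleus they bind E-box motifs with the core CACGTG, many of them in promoters of lysosomal and pump genes.

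Such motifs were looked for in the promoters of the members, because they tie the TFEB family to the other 3 roles. RefSeq windows (GRCm38.p6, 250 bases before to 50 after an annotated start) were matched by symbol for 32 of the 39 members. Atp6v0d2, Atp6v1b2, Atp6v1c1, Atp6v1g1, Atp6v1h, Asah1 and Npc1 had none. CACGTG, which reads the same on both strands, was present in a window of 10 of the 32 members (31.25%), against 8.09% of 27025 genes with a window. The longer TCACGTGA, which contains it, was present in 5 of 32 members, against 1.125% of all genes. With a further G before and C after, it was in no member's window and in 0.370% of all genes. By role, CACGTG was found for 4 of 10 pump genes, 4 of 13 hydrolases and cofactors, 2 of 6 membrane proteins and 0 of 3 TFEB family genes. These are matches of letters, not measured binding. Sites are given for members that the results turn on or that hold the longer motif, 5′ to 3′ on the gene's strand, with the motif in capitals.
Atp6v1a: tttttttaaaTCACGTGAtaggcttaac
Atp6v0e: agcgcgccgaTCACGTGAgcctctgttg
Atp6v0d1: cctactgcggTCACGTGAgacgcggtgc
Gla: gagatctcggTCACGTGAgcaactctcg
Lgmn: ggaatgtctgtCACGTGgtccattttat
Mcoln1: ggcgccccgcTCACGTGAccgcggcgca
Lamp1: gggcaagatatCACGTGgtccagcgccc
Distances are from the start that RefSeq gives for the window, and a gene can have other annotated starts. The sites of Atp6v1a, Atp6v0e, Lgmn and Mcoln1 lie inside the gene's span in GENCODE vM21, which begins further upstream. The Atp6v1a site lies on chr16:44139374-44139401 (minus strand), 128 bases before the RefSeq start. The Atp6v0e site lies on chr17:26676388-26676415 (plus strand) and the Atp6v0d1 site on chr8:105566051-105566078 (minus strand), each at the start itself or within a few bases of it. The Gla site lies on chrX:134601183-134601210 (minus strand), 191 bases before the start, and Gla has another at 224 bases. The Lgmn site lies on chr12:102439125-102439152 (minus strand), 46 bases before an annotated start. The Mcoln1 site shown is on chr8:3500463-3500490 (plus strand), 42 bases before the start, and another core lies at 68 bases. The Lamp1 site shown is on chr8:13159089-13159116 (plus strand), 58 bases before the start, and the same window holds 3 more cores at 42, 25 and 12 bases.

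In cells from mIDH1 tumours 5 of the 39 genes rose and 1 fell. The pump subunit genes Atp6v1a, Atp6v1g1 and Atp6v1h, the protease gene Lgmn and the tetraspanin gene Cd63 rose by between 0.73 and 0.97 on the log2 scale, and Tfeb fell by 0.99. Levels are CPM, counts scaled to library size with TMM factors, and a gene passed at an adjusted p under 0.05 in edgeR's quasi-likelihood test over all 12950 genes. The 5 that rose are 12.8% of the members, beside 2.78% of all genes tested, and the 1 that fell is 2.56%, beside 5.39% of all genes. A positive log2 fold change was found for 29 of the 39 (74.4%), beside 53.4% of all genes, and the median was 0.30 against 0.06 over all genes. Every mIDH1 library lay above every wtIDH1 library for 14 members (35.9%, beside 14.0% of all genes), and below for 4 (10.3%, beside 14.9%). An unadjusted p under 0.05 was reached by 17 members (43.6%), beside 22.2% of all genes. The number that rose was 1, 0 and 0 without wtIDH1 replicate 1, 2 and 3, and 5, 1 and 4 without mIDH1 replicate 1, 2 and 3. Over all genes 360 rose, or 177, 78, 93, 322, 156 and 365 in the same order. Tfeb was lost in 5 of these 6 fits, and without mIDH1 replicate 3 it passed together with Atp6v0c.

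**Figure D1:**
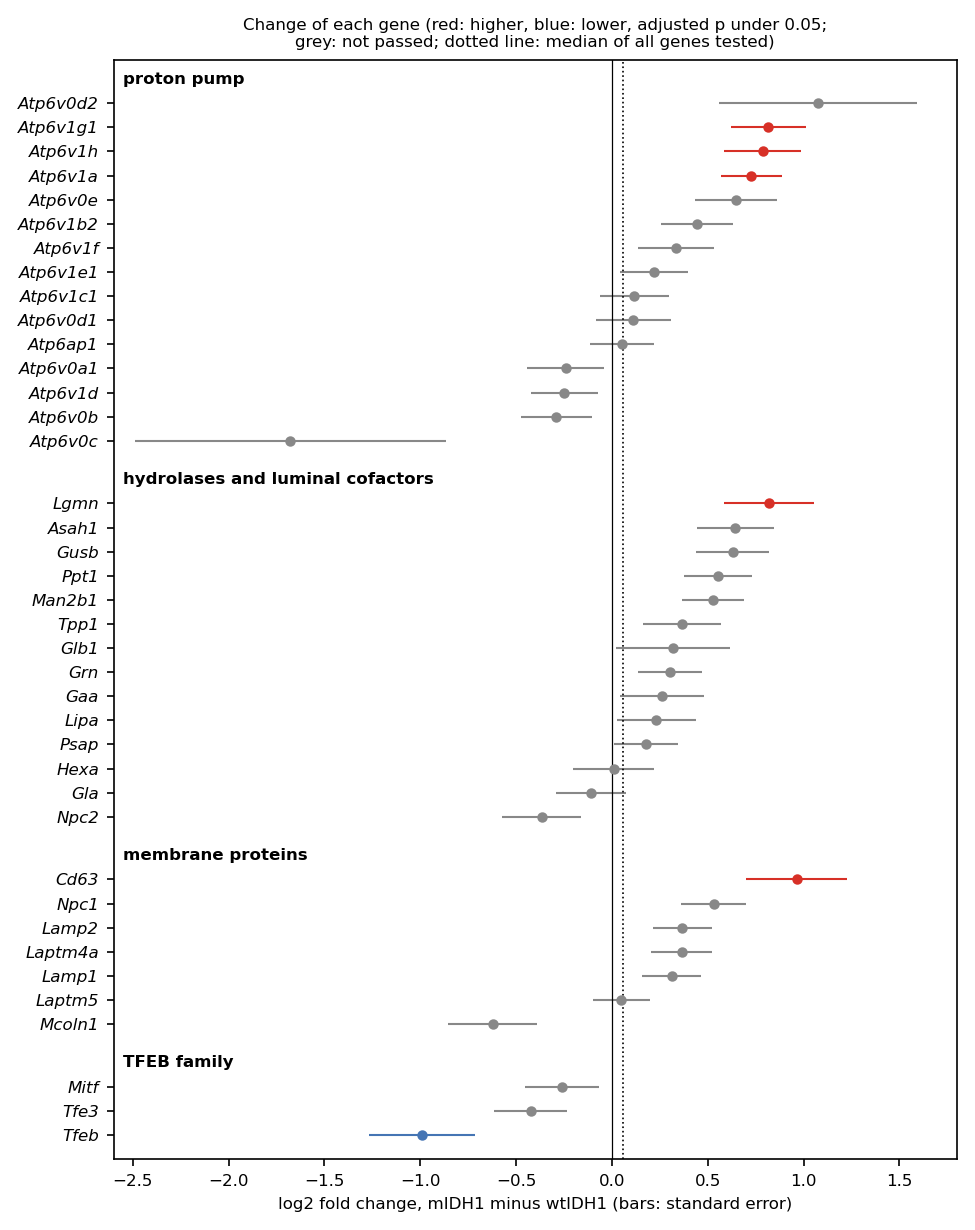
Log2 fold change (mIDH1 minus wtIDH1, horizontal axis) of each of the 39 genes, by role, with the standard error as bars. Red marks the 5 genes that rose and blue the 1 that fell at an adjusted p under 0.05. The dotted line is the median of all genes tested, 0.06.

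The libraries held 19728204 to 35093267 counts and the lowest count of any member in a library was 93. The members took 1.33 to 1.57% of the counts in wtIDH1 and 1.70 to 2.23% in mIDH1 libraries. The CD11b gene Itgam (1780 to 2224 CPM) and the CD45 gene Ptprc (885 to 1308 CPM) were high in all 6 libraries. Of the Gr-1 antigens, Ly6c2 lay between 120.2 and 215 CPM in wtIDH1 and fell to between 33.8 and 54.3 CPM in mIDH1, and Ly6g was not analysed here. Of 12 macrophage markers 6 rose and none fell, and their summed level was 6210 to 7110 CPM in wtIDH1 and 8103 to 15962 CPM in mIDH1. On the negative side were 2 of them, Csf1r (-0.29) and Maf (-0.03), and Csf1r was lower in every mIDH1 library without passing. Of 10 monocyte markers 4 fell and none rose (sums of 6943 to 10864 and 5263 to 7873 CPM). On the positive side were 3 of them, Chil3 (1.19), Vcan (0.82) and Hp (0.54). Chil3 and Hp had an unadjusted p under 0.05. Of 10 neutrophil markers tested 3 rose and 1 fell, at sums of 338 to 418 and 449 to 510.1 CPM, with Elane at 0 in 5 of the 6 libraries. Among 10 microglia markers 1 rose and none fell, 6 were on the negative side and the median was -0.41. An unadjusted p under 0.05 was reached by 4 of them, with P2ry12 and P2ry13 higher and Fcrls and Olfml3 lower. Their sums overlapped, at 1099 to 1750 and 941 to 1885 CPM. Markers of T and NK cells summed to 308 to 553 and 431 to 819 CPM. Of these 11, 1 rose, 10 were on the positive side and the median was 0.74. An unadjusted p under 0.05 was reached by 5, all higher. Markers of glioma and neural cells summed to 12.4 to 14.4 and 16.0 to 24.8 CPM. Of 6 tested 1 rose, and 4 had an unadjusted p under 0.05, of which Ptprz1 was lower. Sums were lowest for B cells (none of 4 tested passed, 1 at an unadjusted p under 0.05). Of 3 erythroid and platelet markers tested, Pf4 and Ppbp rose, and the platelet gene Itga2b lay lower without passing (1.33 ± 0.28 and 0.65 ± 0.69 CPM, SD). Gp9, another platelet gene, was not tested and was at 0.046 to 3.38 CPM in wtIDH1 and 0 in every mIDH1 library. The sums of the list were 7.35 to 12.5 and 21.7 to 51.8 CPM, with Hba-a1 at 0 in all 6 libraries. Of 10 dendritic cell markers Mgl2 fell by 2.99 on the log2 scale, none rose and 9 were on the negative side, at sums of 412 to 569 and 459 to 812 CPM. None of 5 endothelial and pericyte markers tested passed, with 1 at an unadjusted p under 0.05 and sums of 109 to 151 and 89.1 to 122 CPM. Macrophages express lysosomal genes strongly, and the part of these markers in the results below was not tested. In sorted bulk RNA, fewer cells of a type and less RNA per cell cannot be told apart.

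The V1 sector of the pump, which binds and splits ATP, held the 3 pump genes that rose. They are 3 of its 8 genes (37.5%, beside 2.78% of all genes tested). On the positive side lay 7 of the 8 (87.5%, beside 53.4%), and the median was 0.39 against 0.06 over all genes. The summed level of the 8 genes was 750 to 854 CPM in wtIDH1 and 1036 to 1128 CPM in mIDH1, without overlap between the groups. None of the 6 V0 genes passed edgeR's test, 1 of them (Atp6v0e) had an unadjusted p under 0.05, none passed by DESeq2, and their median was -0.06. That median includes the row of Atp6v0c, which shares reads with a pseudogene: with both rows summed, an alternative chosen after seeing the data, the V0 median was 0.25 with 4 of 6 on the positive side, and the V1 median stayed at 0.39. The difference between the sectors was not tested.

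Atp6v1a encodes the catalytic A subunit and lies on chromosome 16 from 44085402 to 44139705 (coordinates of GRCm38, which is mm10). It was at 136, 156 and 159.8 CPM in wtIDH1 replicates 1, 2 and 3 and at 255, 236 and 256 CPM in mIDH1 replicates 1, 2 and 3. All mIDH1 libraries were high, and the lowest stood 47.6% above the highest wtIDH1 library (log2 fold change 0.73 ± 0.16 SE, adjusted p = 0.0157 in edgeR's test). The adjusted p was 0.0709, 0.0804 and 0.0627 without wtIDH1 replicate 1, 2 and 3, while the log2 fold change stayed between 0.65 and 0.77.

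Atp6v1g1 encodes the G subunit of the peripheral stalk that holds the V1 sector still against the rotor (chromosome 4, 63544772 to 63550750). Its wtIDH1 libraries were close together at 37.8, 37.8 and 39.1 CPM, and the mIDH1 libraries were at 61.1, 69.6 and 71.2 CPM. The groups stood 56.1% apart at their nearest libraries (log2 fold change 0.82 ± 0.20 SE, adjusted p = 0.0236). The adjusted p was 0.0709, 0.1055 and 0.0893 without wtIDH1 replicate 1, 2 and 3 and 0.0732 without mIDH1 replicate 2. Of the gene's 50-base words, 19.2% also occur in the annotated gene Gm13453, which is not a row of the table, so some of its reads could not be placed with certainty.

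Atp6v1h encodes the regulatory H subunit, which is needed for ATP hydrolysis to drive pumping (chromosome 1, 5070018 to 5162529). It was at 49.7, 45.8 and 41.3 CPM in wtIDH1 and 92.7, 76.7 and 66.6 CPM in mIDH1. The lowest mIDH1 library was 33.9% above the highest wtIDH1 library (log2 fold change 0.79 ± 0.20 SE, adjusted p = 0.0316). The call was lost without wtIDH1 replicate 1, 2 or 3 (adjusted p = 0.0671, 0.126 and 0.140) and without mIDH1 replicate 1 or 2 (0.0957 and 0.0783). A stretch of 5.84% of its exons overlaps Rgs20 on the other strand, and the libraries do not mark strand.

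The other V1 genes did not pass. Atp6v1b2, the B subunit that pairs with A, had a log2 fold change of 0.45 (adjusted p = 0.177), at 180.2, 206.5 and 223 CPM in wtIDH1 and 327, 288 and 215 CPM in mIDH1, where replicate 3 lay inside the wtIDH1 range. Without mIDH1 replicate 3 it passed (0.60, adjusted p = 0.0449). The stalk gene Atp6v1e1 and the rotor gene Atp6v1f had log2 fold changes of 0.22 and 0.33, and Atp6v1c1, which joins the stalks to the membrane sector, one of 0.12. Atp6v1d, the other rotor subunit, was the only V1 gene with a negative value (-0.25, adjusted p = 0.458). In these genes the groups overlapped.

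Within V0, the small subunit e gene Atp6v0e had the smallest p. It was at 72.0, 46.3 and 49.9 CPM in wtIDH1 and 92.4, 74.6 and 96.2 CPM in mIDH1 libraries (log2 fold change 0.65 ± 0.22 SE, adjusted p = 0.0882). The groups did not overlap, but only 3.67% separated mIDH1 replicate 2 from wtIDH1 replicate 1. Atp6v0b, a proteolipid of the rotor ring, lay lower in every mIDH1 library (50.5 to 54.7 CPM against 61.4 to 66.1 CPM, adjusted p = 0.400). Atp6ap1, an accessory protein of pump assembly, was nearly level at 255 ± 36.3 and 264 ± 14.1 CPM (SD, n = 3 each).

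Subunit d, which couples the rotor to the ring, has a general form, Atp6v0d1, and a form known from osteoclasts and macrophages, Atp6v0d2. Atp6v0d1 was at 113 ± 25.6 and 122 ± 8.83 CPM. Atp6v0d2 was at 11.4, 3.53 and 5.95 CPM in wtIDH1 and 8.79, 21.9 and 13.3 CPM in mIDH1 libraries (log2 fold change 1.07 ± 0.52 SE, adjusted p = 0.246). The groups overlapped through wtIDH1 replicate 1. Per kilobase of exon, Atp6v0d2 made up 1.72 to 8.05% of the subunit d level in wtIDH1 and 4.75 to 10.2% in mIDH1 libraries.

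Subunit a forms the proton path of V0, and its main form in these cells by level per length was a3, encoded by Tcirg1, a gene outside the 39 that is known for its role in osteoclasts. Tcirg1 fell, from 451, 537 and 490.4 CPM in wtIDH1 to 238, 162 and 229.8 CPM in mIDH1. Every mIDH1 library was low, far from the lowest wtIDH1 library. Its log2 fold change was -1.23 ± 0.19 (SE), with adjusted p = 0.00209, and it passed in all 14 alternatives run. Atp6v0a1 was at 141, 106 and 127 CPM and 127, 109 and 80.9 CPM (log2 fold change -0.24, adjusted p = 0.538), and Atp6v0a2 did not pass either (-0.02). Per kilobase of exon, the 3 forms added up to 179.8 to 196 CPM in wtIDH1 and 82.7 to 113 CPM in mIDH1. The Tcirg1 share of that sum was 75.8 to 82.9% in wtIDH1 and 59.1 to 70.9% in mIDH1 libraries. The kidney forms Atp6v0a4 and Atp6v1b1 had 0 counts in all 6 libraries, which allows up to 0.0855 to 0.152 CPM per library and covers counting error only.

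The proteolipid gene Atp6v0c, whose product forms most of the rotor ring, varied widely between the libraries of each group. It was at 164, 28.9 and 14.1 CPM in wtIDH1 and 5.37, 13.7 and 46.0 CPM in mIDH1 libraries (log2 fold change -1.68 ± 0.81 SE, adjusted p = 0.247). Without mIDH1 replicate 3 it passed, at -2.85 (adjusted p = 0.0332). Its processed pseudogene Atp6v0c-ps2 has a row of its own in the table and holds 10.7% of the 50-base words found in the gene's transcripts. The pseudogene row was at 103 CPM in wtIDH1 replicate 1 and between 243 and 402 CPM in the other libraries. Atp6v0c held 61.4% of the counts of both rows in wtIDH1 replicate 1, and 1.32 to 12.8% in the other 5 libraries. No source used here says how reads matching both rows were assigned, and neither row alone can be taken as the level of the gene. Summed into 1 feature, an alternative chosen after seeing the data, they stood at 267, 325 and 257 CPM in wtIDH1 and 407, 349 and 361 CPM in mIDH1. The sum was steady within groups, which did not overlap, and its log2 fold change was 0.39 ± 0.17 (SE, adjusted p = 0.177), the opposite direction to that of the gene's own row.

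**Figure D2:**
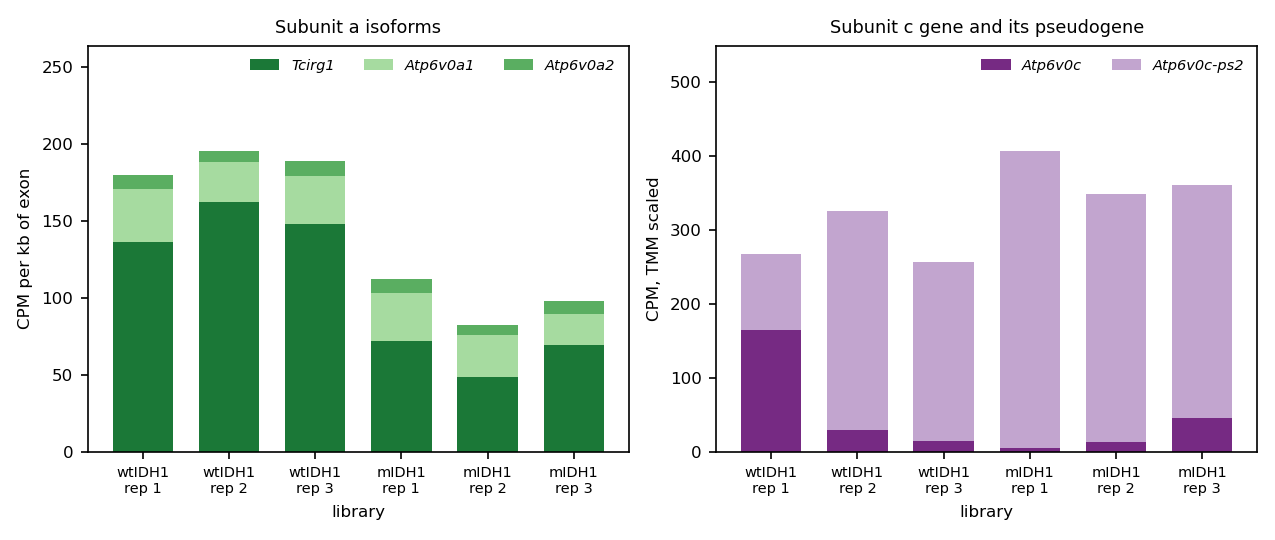
Left, CPM per kilobase of exon of the 3 subunit a genes stacked for each library. Right, TMM-scaled CPM of Atp6v0c and Atp6v0c-ps2 stacked for each library, where wtIDH1 replicate 1 has 61.4% on the gene and the other libraries 1.32 to 12.8%.

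Among hydrolases and luminal cofactors 1 of 14 rose (7.14%, beside 2.78% of all genes tested) and none fell (beside 5.39%). On the positive side were 12 (85.7%, beside 53.4%), and the median was 0.31 against 0.06 over all genes. Lgmn, the asparaginyl endopeptidase that also matures other lysosomal proteases (chromosome 12, 102394084 to 102439813), was at 1894, 1319.9 and 1402 CPM in wtIDH1 and 1990.4, 2392 and 3762 CPM in mIDH1. The mIDH1 libraries were higher, but mIDH1 replicate 1 was only 5.08% above wtIDH1 replicate 1. With a log2 fold change of 0.82 ± 0.23 (SE) and adjusted p = 0.0497, Lgmn was just inside the threshold. It was outside with RLE size factors (adjusted p = 0.0505), without wtIDH1 replicate 1, 2 or 3 (0.0535, 0.230 and 0.180) and without mIDH1 replicate 2 or 3 (0.0859 and 0.1085). Without mIDH1 replicate 3 its log2 fold change was 0.51. Ctsb, a cathepsin gene given here for scale, had a log2 fold change of 0.63 (adjusted p = 0.0426, and up to 0.194 with 1 library left out).

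A group of 4 further hydrolases lay above the wtIDH1 range in every mIDH1 library without passing. With Lgmn, the mIDH1 libraries all lay above for 5 of the 14 genes (35.7%, beside 14.0% of all genes tested). Gusb, beta-glucuronidase, was at 224, 183 and 177 CPM in wtIDH1 and 291, 242 and 370.2 CPM in mIDH1 libraries (log2 fold change 0.63 ± 0.19 SE, adjusted p = 0.0614). Man2b1, the lysosomal alpha-mannosidase, was at 431, 405 and 465 CPM and 576, 595 and 706 CPM (0.53 ± 0.16 SE, adjusted p = 0.0629). Asah1, acid ceramidase, was at 282, 229 and 244 CPM and 307, 358 and 514 CPM (0.64 ± 0.20 SE, adjusted p = 0.0703). In these genes mIDH1 replicate 3 was the highest library. Ppt1, which removes palmitate from proteins, had a log2 fold change of 0.55 (adjusted p = 0.0770). All 4 passed by DESeq2 (adjusted p = 0.0250 for Gusb, 0.0195 for Man2b1, 0.0273 for Asah1 and 0.0381 for Ppt1). Asah1 also passed without mIDH1 replicate 1 (adjusted p = 0.0312).

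In the other hydrolases the groups overlapped. Tpp1, a tripeptidyl peptidase, and the glycosidase genes Glb1, Gaa and Hexa had log2 fold changes of 0.36, 0.32, 0.26 and 0.01. Lipa, the acid lipase of lysosomes, was at 0.23 and Gla, alpha-galactosidase, at -0.11. The most abundant member by length was Psap, the precursor of the saposins that help hydrolases reach lipids, at 1606 CPM per kilobase of exon in wtIDH1 and 1817 in mIDH1, with a log2 fold change of 0.18. Grn, progranulin, had a log2 fold change of 0.30 (adjusted p = 0.323). Npc2, which hands cholesterol to NPC1, went the other way at 569 ± 90.2 and 442 ± 114 CPM (-0.37, adjusted p = 0.332).

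Many hydrolases and cofactors were at their highest or lowest in the same library. In mIDH1 replicate 3, 11 of the 14 genes were at their highest of the 6 libraries, and in wtIDH1 replicate 3, 8 were at their lowest. The shares of all genes tested that were highest or lowest in these libraries were not computed, so the counts may not be particular to the hydrolases. The summed level of the 14 genes was 10380, 10293 and 8706 CPM in wtIDH1 replicates 1, 2 and 3. In mIDH1 replicates 1, 2 and 3 it was 11619, 10816 and 14683 CPM. Psap, Lgmn and Grn were the largest parts of that sum, at 5393, 3762 and 2033 CPM in mIDH1 replicate 3. In mIDH1 replicate 1 these genes were at 5101, 1990 and 1699 CPM. The macrophage marker sum was also highest in mIDH1 replicate 3, at 15962 CPM, while replicates 1 and 2 of that group had 8103 and 8383 CPM. Apoe alone was at 6836 CPM there, beside 1920 to 2690 CPM in the other 5 libraries. The median log2 fold change of the 14 genes was 0.19 without mIDH1 replicate 3 and 0.17 without wtIDH1 replicate 3. Whether these markers account for the hydrolase levels was not tested.

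**Figure D3:**
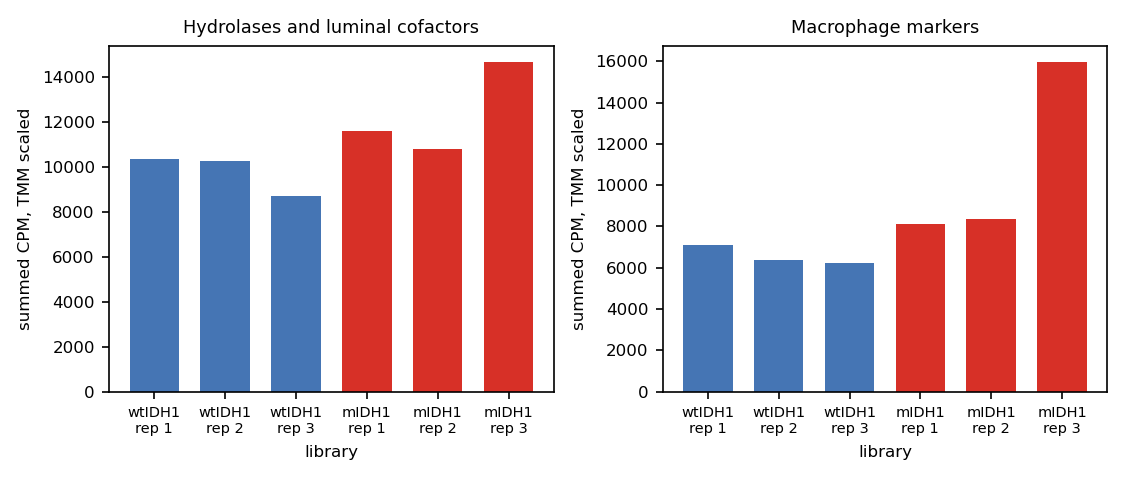
Summed TMM-scaled CPM in each library (blue wtIDH1, red mIDH1) of the 14 hydrolases and luminal cofactors, left, and of 12 macrophage markers, right. Both sums are highest in mIDH1 replicate 3, at 14683 and 15962 CPM.

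Of the 7 membrane proteins 1 rose (14.3%, beside 2.78% of all genes tested) and none fell (beside 5.39%). For 5 every mIDH1 library lay above every wtIDH1 library (71.4%, beside 14.0% of all genes tested). Cd63, a tetraspanin of late endosomes, lysosomes and exosomes (chromosome 10, 128900989 to 128912822), was at 163, 122 and 104 CPM in wtIDH1 and 166, 230.3 and 363 CPM in mIDH1. The mIDH1 libraries were widely spread, and mIDH1 replicate 1 stood barely above wtIDH1 replicate 1. Its log2 fold change was 0.97 ± 0.26 (SE), with adjusted p = 0.0422. The call was lost without wtIDH1 replicate 2 or 3 (adjusted p = 0.181 and 0.178) and without mIDH1 replicate 2 or 3 (0.0859 and 0.0987), in the last case with a log2 fold change of 0.61. Of its 50-base words 11.1% also occur in other annotated genes, mostly the pseudogene Cd63-ps, which is not a row of the table.

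Npc1 exports cholesterol from lysosomes. It was at 150.3, 163 and 125 CPM in wtIDH1 and 215, 194 and 224 CPM in mIDH1, without overlap (log2 fold change 0.53 ± 0.17 SE, adjusted p = 0.0742). It passed by DESeq2 (adjusted p = 0.0436), with library totals alone (0.0427) and with upper-quartile factors (0.0487). Lamp2, a main protein of the lysosomal membrane that also serves autophagy, was at 343, 356 and 363 CPM and 488, 429.9 and 452 CPM (0.37 ± 0.15 SE, adjusted p = 0.173). Its partner Lamp1 was at 1104 ± 19.0 and 1372 ± 123 CPM (0.31, adjusted p = 0.258), and Laptm4a, a small late endosomal protein, at 148 ± 4.23 and 190.1 ± 17.5 CPM (0.36, adjusted p = 0.195). In all 3 the groups did not overlap, although none passed. Laptm5, specific to blood cells, was nearly level at 1558 ± 78.7 and 1610.3 ± 4.86 CPM.

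Mcoln1, the calcium channel through which lysosomes signal to TFEB, was the membrane gene with a negative value. It was at 35.9, 41.0 and 37.2 CPM in wtIDH1 and 25.8, 23.7 and 24.6 CPM in mIDH1. The libraries of each group were close together and the groups did not overlap. Its log2 fold change was -0.62 ± 0.23 (SE), with adjusted p = 0.129, and it did not pass in any of the 14 alternatives (adjusted p from 0.0968 to 0.317).

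All 3 TFEB family genes among the members had negative log2 fold changes, and 1 fell (33.3%, beside 5.39% of all genes tested). Tfec, a related gene outside the 39 that stands in the wider list of TFEB regulators, went the other way without passing. It was at 23.6 ± 8.43 and 32.2 ± 7.58 CPM (SD), with overlap (log2 fold change 0.45, adjusted p = 0.455 in edgeR's test). Tfeb (chromosome 17, 47737030 to 47792419) was at 44.9, 76.3 and 38.9 CPM in wtIDH1 and 23.9, 26.4 and 30.3 CPM in mIDH1. The mIDH1 libraries were all low, while wtIDH1 replicate 2 stood apart from the others of its group. The log2 fold change was -0.99 ± 0.28 (SE), with adjusted p = 0.0462. Without wtIDH1 replicate 2 it was -0.65 (adjusted p = 0.255). The call was also lost without wtIDH1 replicate 1 or 3 (adjusted p = 0.0650 and 0.0568), without mIDH1 replicate 1 or 2 (0.102 and 0.121), with library totals alone (0.0615) and with upper-quartile factors (0.0593). Tfe3 was at 85.2, 113 and 96.1 CPM and 73.6, 82.3 and 63.3 CPM (-0.42 ± 0.19 SE, adjusted p = 0.203). Its groups did not overlap, with wtIDH1 replicate 1 close to mIDH1 replicate 2. Mitf was at 58.9, 73.3 and 73.4 CPM and 58.6, 51.3 and 61.9 CPM (-0.26 ± 0.19 SE, adjusted p = 0.484), and its groups overlapped. Counts of RNA do not show how much of these factors was in the nucleus.

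**Figure D4:**
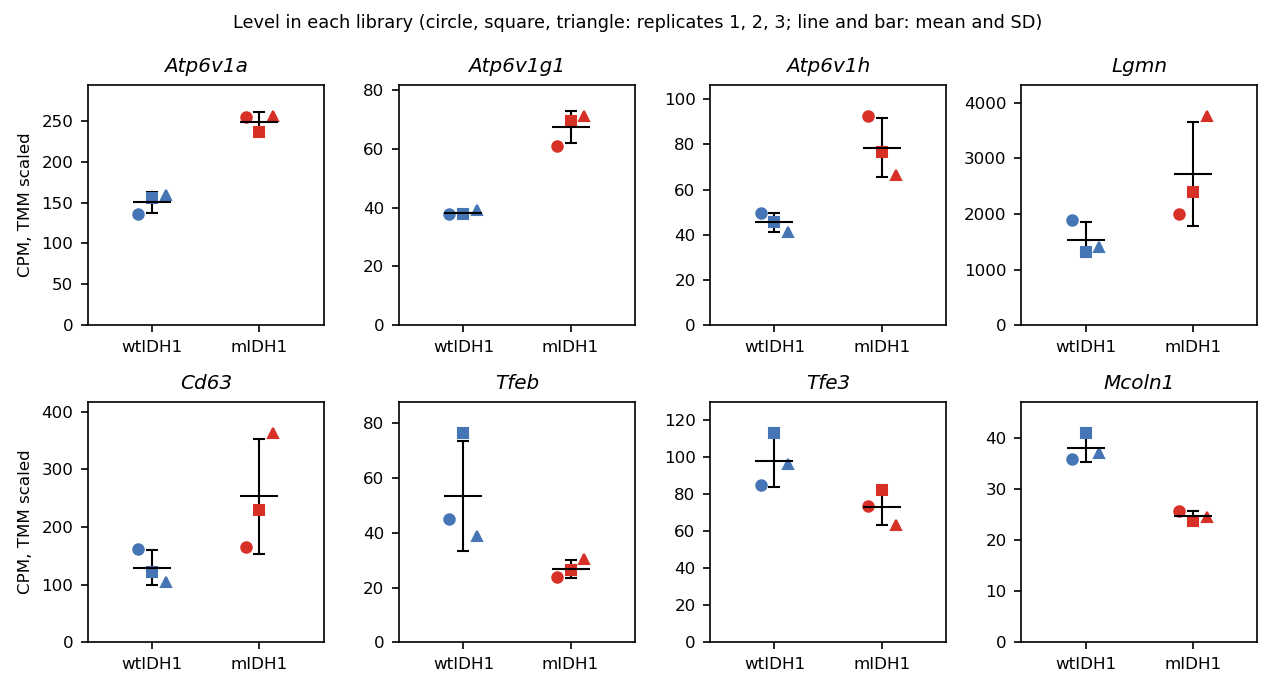
TMM-scaled CPM of 8 genes in each library (symbols for replicates 1 to 3, blue wtIDH1, red mIDH1), with the mean and SD of each group. The 3 pump genes, Lgmn and Cd63 lie higher in mIDH1 and Tfeb, Tfe3 and Mcoln1 lower, and Tfe3 and Mcoln1 did not pass.

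Set beside the promoter sites shown above, members with and without the motif were found in both directions. Of the 10 members with CACGTG, Atp6v1a and Lgmn rose, none fell, 7 were on the positive side and the median was 0.29. Of the 22 whose windows lacked it, Cd63 rose, Tfeb fell, 15 were on the positive side and the median was 0.20. The 7 members without a window were all on the positive side, with a median of 0.64, and Atp6v1g1 and Atp6v1h of these rose. Mcoln1 and Atp6v0b, which hold the motif, were lower in every mIDH1 library. No test was made of this difference.

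Across libraries the members did not move as 1 block. In mIDH1 replicate 3, 19 of the 39 were at their highest of the 6 libraries, and in wtIDH1 replicate 3, 15 were at their lowest. Within the mIDH1 group, replicate 3 was the highest for 25 members and replicate 2 the lowest for 21. The shares of all genes tested were not computed for these counts, which may not be particular to the members. The pump differed less between mIDH1 libraries, with sums of 1792, 1690.3 and 1732 CPM, than the hydrolases did.

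**Figure D5:**
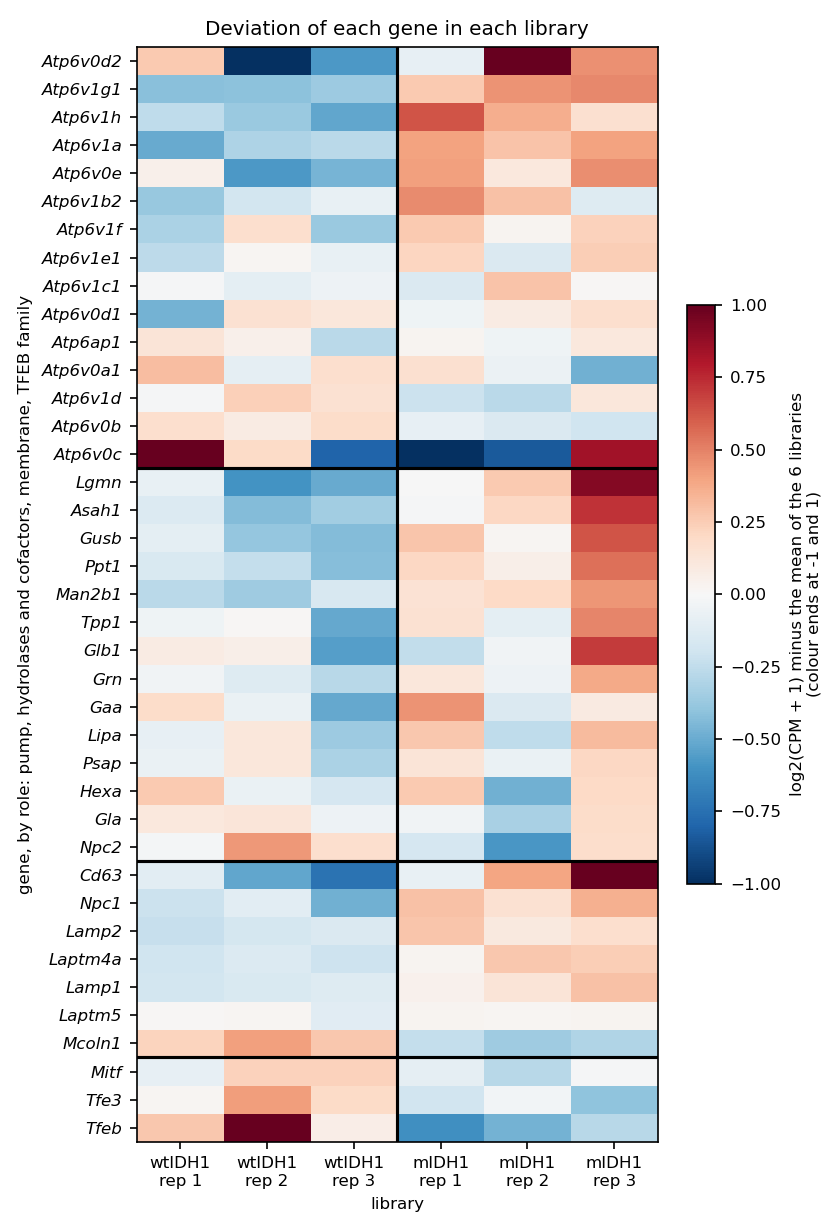
Each cell is log2(CPM + 1) of a gene (rows, by role) in a library (columns) minus its mean over the 6 libraries, with colours ending at -1 and 1. In mIDH1 replicate 3, 11 of the 14 hydrolases and cofactors are at their highest.

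A wider list of 91 other lysosomal genes, of which 83 were tested, held genes that changed in both directions. Of these 8 rose (9.64%, beside 2.78% of all genes tested) and 5 fell (6.02%, beside 5.39%), and the median was 0.24. The share that fell was thus near that of all genes. Among 27 other hydrolases and luminal proteins 3 rose (11.1%) and none fell. Sgsh, which breaks down heparan sulfate, rose from 36.5 ± 7.48 to 73.1 ± 8.88 CPM (adjusted p = 0.0157), and Acp5, the tartrate-resistant phosphatase of osteoclasts and macrophages, by 1.06 on the log2 scale (0.0304). Sgsh was lost when wtIDH1 replicate 1 or 3 was left out (adjusted p = 0.0638 and 0.0854), or mIDH1 replicate 2 (0.0547). Acp5 was lost when wtIDH1 replicate 2 or 3 (0.1498 and 0.143) or mIDH1 replicate 3 (0.0660) was left out. Of 16 other membrane proteins tested, Cd68, which also stands in the macrophage list, rose (0.67, adjusted p = 0.0223) and Cln3, the Batten disease protein, fell (-0.76, adjusted p = 0.0466). Cd68 was lost without wtIDH1 replicate 1, 2 or 3 or mIDH1 replicate 2 (adjusted p = 0.0703, 0.0797, 0.121 and 0.0604). Cln3 was lost without any 1 library (adjusted p from 0.0770 to 0.1825).

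Genes that carry proteins to the lysosome were split. Of 18 tested 2 rose (11.1%, beside 2.78% of all genes tested) and 3 fell (16.7%, beside 5.39%). The sorting receptors Sort1 (42.0 ± 4.35 to 90.5 ± 20.8 CPM, log2 fold change 1.11, adjusted p = 0.00876) and Igf2r, the large mannose 6-phosphate receptor (110.1 ± 18.1 to 197 ± 22.5 CPM, 0.84, adjusted p = 0.0140), rose. Ap3d1, of the AP-3 coat that carries lysosomal membrane proteins, fell from 308 ± 18.2 to 154 ± 1.89 CPM (adjusted p = 0.00253). It passed in all 14 alternatives. The adaptor genes Gga3 (-1.13, adjusted p = 0.0187) and Gga1 (-0.66, adjusted p = 0.0352) fell too. Sort1 was lost without wtIDH1 replicate 3 (adjusted p = 0.0570), Igf2r without wtIDH1 replicate 1 or 3 (0.0642 and 0.0893), Gga3 without wtIDH1 replicate 1 or 3 (0.0724 and 0.0840), and Gga1 without any 1 library (0.0575 to 0.164).

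Of 16 regulators of TFEB 2 rose (12.5%, beside 2.78% of all genes tested) and none fell (beside 5.39%). Both act where mTORC1 meets TFEB on the lysosome: Fnip2, a partner of folliculin (232 ± 7.03 to 367 ± 18.7 CPM, log2 fold change 0.67, adjusted p = 0.0197), and Rragc, a Rag GTPase (98.8 ± 13.1 to 162 ± 12.3 CPM, 0.72, adjusted p = 0.0235). Their groups did not overlap. Fnip2 was lost without any 1 of the wtIDH1 libraries (adjusted p = 0.0603, 0.1055 and 0.0993), and Rragc without wtIDH1 replicates 2 or 3, or without mIDH1 replicates 1 or 2 (0.109, 0.129, 0.0522 and 0.0537).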

How the data were processed

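RNA of sorted tumour myeloid cells was sequenced in 3 libraries per group. What the authors deposited is a single table of estimated counts per gene, unscaled. The submitters' processing notes list mm10 and the tools HTSeq, Cuffdiff 2.1.1, Cufflinks, Bowtie2 2.2.1, TopHat2 2.0.13 and FastQC. No source used here gives their settings, the annotation or how multiply matching reads were handled, so genes with close copies are uncertain. Per the labels' protocols, a TruSeq mRNA kit on polyadenylated RNA was used, which does not mark strand.

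Between 1.31 and 1.61% of values were not whole (tolerance 1e-09), and all were rounded. Genes were kept with filterByExpr (minimum count 10, minimum total 15), scaled by TMM and compared with edgeR 4.0.16 (glmQLFit, glmQLFTest, group only) in R 4.3.3, with two-sided p-values adjusted by Benjamini-Hochberg over all 12950 genes. DESeq2 1.42.0 and limma 3.58.1 (voom) were among 14 alternatives, which also covered scaling, filters, a replicate block and leaving out each library. On simulated counts for mIDH1 against wtIDH1 (12687 genes), 24.5% of 98 genes changed by 1 on the log2 scale and 55.8% of 95 changed by 2 were recovered, with 7 false among 84 calls. The simulation changed 200 genes, fewer than the 360 higher and 698 lower calls in the data. These rates therefore need not hold for the test on the data. Levels per length use the union of exons in GENCODE vM21 (GRCm38), and the words shared between genes come from its transcripts. A chi-square over genes, divided by its degrees of freedom, was 48.5 to 139 between replicates, above sampling noise, so each library was kept as 1 sample.

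All 39 members are named. Values in every library are given for members that passed and, per role, up to 4 with the smallest p, and Atp6v0c, Atp6v0d2, Atp6v0a1 and Atp6v1b2 were added after their values were seen. From each wider list the genes that passed are named, up to 4 by smallest p, and Gga1 and Tfec were added after their values were seen. The result of 1 gene of these lists that passed is not reported here. The members and all lists were chosen with earlier results of these data known.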

Additional observations from a re-analysis of the deposited data

How the results depend on the processing

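Calls depended on which libraries entered. Over all genes, 360 higher and 698 lower calls became 718 and 987 with DESeq2, 156 and 429 with the replicate block, and 78 to 365 and 256 to 707 with 1 library left out. With library totals alone the split was 486 higher and 593 lower. Of the members, the 5 higher calls became 8 with library totals alone or upper-quartile factors, 10 with DESeq2, 0 with the replicate block and 0 to 5 with 1 library left out. The 1 lower call, Tfeb, became 0 with library totals alone, upper-quartile factors or the replicate block, and 0 to 2 with 1 library left out (0 to 1 in the TFEB family). The 3 higher pump calls became 0 with the replicate block and 0 to 4 with 1 library left out, and the 0 lower pump calls 0 to 1. The 1 higher call among hydrolases became 0 with RLE size factors, 3 with library totals alone, upper-quartile factors or no filter, 5 with DESeq2, 2 with limma voom, 0 with the replicate block and 0 to 2 with 1 library left out. The 1 among membrane proteins became 2 with library totals alone, upper-quartile factors or DESeq2, 0 with the replicate block and 0 to 1 with 1 library left out. In the wider lists, 8 higher and 5 lower calls became 3 and 3 with the replicate block, and 0 to 7 and 2 to 3 with 1 library left out, and the lower calls 3 with library totals alone or upper-quartile factors. The cause of these differences was not tested, and a fit with 1 library left out also has fewer samples.

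Leaving out 1 library, the median log2 fold change ranged from 0.14 to 0.33 for the pump, 0.17 to 0.42 for hydrolases and cofactors, 0.33 to 0.37 for membrane proteins and -0.52 to -0.32 for the TFEB family. Several genes changed sign, among them Glb1, which was at 0.32 with all 6 libraries. Hexa was at -0.021 with limma voom and -0.017 with the replicate block. With 1 library left out it ranged from -0.12 to 0.21, Atp6v0d1 from -0.071 to 0.21, Atp6v1c1 from -0.011 to 0.21, Atp6ap1 from -0.064 to 0.125, Gla from -0.235 to 0.017 and Glb1 from -0.024 to 0.50. Atp6v0c summed with its pseudogene gave 0.39, and the pump median was then 0.33 in place of 0.22. Of the log2 fold changes of single genes under the alternatives, 625 kept direction and side of the threshold, 89 lost a call, 17 gained one and 12 changed sign. That tally covers all members, including the 33 that did not pass, with Ctsb and wider-list genes that passed. Of the 14 alternatives, the call was lost in 4 for Atp6v1a, 5 for Atp6v1g1, 6 for Atp6v1h, 7 for Lgmn, 5 for Cd63 and 8 for Tfeb.

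The labels do not say that replicate numbers pair the libraries. Deviations of same-numbered libraries from their group means correlated at -0.0322, 0.0313 and -0.0511 across genes, so the numbers were not taken as pairs, and the block takes up degrees of freedom.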
